A study of Mus musculus with 7 samples.

Results

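Among the H3K9me3 peaks of wild-type (WT) fibroblasts, 1273 autosomal peaks were tall and narrow and had no counterpart after deletion of Setdb1. A WT peak was taken if it lay on chromosomes 1 to 19, had a pileup of at least 15 fragments at its summit, was at most 1000 bp wide, and shared no base with any knockout (KO) peak. These 1273 peaks, called lost peaks here, were selected on pileup, width and overlap out of 23190 WT peaks in all, 21957 of them autosomal. Those measures, and others of the same peaks such as their enrichment, are therefore given as a description. Sharing no base with a KO peak applied to 82.4% of the 1545 tall narrow autosomal WT peaks and to 97.7% of all autosomal WT peaks, and nothing is read from these shares because the overlap was part of the rule.

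The study asked which H3K9me3 marks depend on Setdb1 by chromatin immunoprecipitation and sequencing (ChIP-seq) of Setdb1 cKO iMEFs, which are immortalised mouse embryonic fibroblasts whose Setdb1 gene can be deleted. The WT library came from untreated cells of this conditional line, so that the WT cells carry the conditional allele too. The KO library came from cells given 4-hydroxytamoxifen (4OHT) for 4 days and harvested on day 7. The line had been recloned from single cells, so both libraries stand for 1 clone, and the control cells received no 4OHT. Each group had 1 library. No difference between WT and KO therefore has a replicate check, no test was possible, and all 95% intervals below cover counting error only. Of the 7 samples of the series, 5 entered no comparison. The KO list held 3775 peaks and the WT list 23190. The peak lists hold no measure of the Setdb1 transcript or allele, so the deletion itself was not checked here. Read totals are not part of the lists, and a site missing from the KO list may still have carried the mark below what the caller listed, the lowest pileup being 9 fragments in both lists.

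H3K9me3, histone H3 with 3 methyl groups on its lysine 9, is a hallmark of heterochromatin and is bound by HP1 proteins. Setdb1 is a histone methyltransferase that is brought to DNA by zinc-finger proteins of the KRAB family together with the corepressor Trim28, and it is known for silencing retrotransposons and for marking clusters of zinc-finger genes. Pericentric major satellite repeats are, in contrast, known targets of the methyltransferases Suv39h1 and Suv39h2. LINE-1 elements are autonomous retrotransposons with 2 open reading frames, of which ORF1 encodes an RNA-binding protein and ORF2 an endonuclease and reverse transcriptase.

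The lost peaks fell into a few kinds of sequence, and 1 peak of each main kind is printed to show them. All sequences are from the plus strand of mm9, and positions count from 1 with the deposited start read as counting from 0. The first 3 lie in LINE-1 copies and come from the first, the second and the fifth largest group of lost peaks that aligned to one another. The other two lead their groups, and the one printed first is the highest-scoring one of its group that could be shown. Capitals mark the 31 bases that occur most often in the genome.
chr10:12721719-12721904: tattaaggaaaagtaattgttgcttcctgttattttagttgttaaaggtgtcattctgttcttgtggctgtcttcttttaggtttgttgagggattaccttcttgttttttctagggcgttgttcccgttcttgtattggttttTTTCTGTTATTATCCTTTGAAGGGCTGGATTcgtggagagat
chr13:26332120-26332245: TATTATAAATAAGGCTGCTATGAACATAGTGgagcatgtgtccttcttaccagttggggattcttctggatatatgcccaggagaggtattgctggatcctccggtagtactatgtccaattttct
chr15:4230365-4230463: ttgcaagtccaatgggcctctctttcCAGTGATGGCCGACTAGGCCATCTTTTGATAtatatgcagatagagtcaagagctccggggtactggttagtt

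The next sequence encodes zinc fingers, and capitals mark each run of codons for the TGEKP linker that joins neighbouring fingers, read here on the opposite strand. It leads the third largest group.
chr13:66893847-66894131: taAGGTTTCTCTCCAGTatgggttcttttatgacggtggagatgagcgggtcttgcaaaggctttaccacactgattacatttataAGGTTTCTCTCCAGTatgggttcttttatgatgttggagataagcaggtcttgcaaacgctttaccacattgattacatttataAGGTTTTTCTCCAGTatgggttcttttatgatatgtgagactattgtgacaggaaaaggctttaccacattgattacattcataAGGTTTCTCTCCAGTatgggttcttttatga

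The last 4 are tandem repeats or related to one, with capitals on 1 repeat unit as recorded by the search. In the peak on chromosome 15 that recorded period is 12 bp and holds the shorter unit TCTGCC more than once. In the single-copy peak on chromosome 6, capitals mark the 31 bases found most often. They are the highest-scoring peak of all, the leader of the fourth largest group, a peak at the highest pileup, and the fourth-highest-scoring peak.
chr15:38238255-38238349: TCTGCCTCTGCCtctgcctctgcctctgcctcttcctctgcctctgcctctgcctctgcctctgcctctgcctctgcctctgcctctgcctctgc
chr17:3023021-3023095: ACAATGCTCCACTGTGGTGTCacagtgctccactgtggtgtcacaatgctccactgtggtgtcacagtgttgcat
chr9:3024996-3025249: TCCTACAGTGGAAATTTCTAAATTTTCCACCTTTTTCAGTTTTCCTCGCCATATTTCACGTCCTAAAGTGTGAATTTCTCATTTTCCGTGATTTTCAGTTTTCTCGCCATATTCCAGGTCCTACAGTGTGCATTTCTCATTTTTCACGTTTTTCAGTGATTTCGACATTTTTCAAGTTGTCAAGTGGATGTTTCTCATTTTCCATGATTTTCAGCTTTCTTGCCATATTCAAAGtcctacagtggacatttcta
chr6:60637228-60637308: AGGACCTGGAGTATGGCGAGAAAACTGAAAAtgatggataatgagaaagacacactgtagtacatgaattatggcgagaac

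Most lost peaks were only a little above the pileup limit. Their pileup ran from 15 to 140 fragments with a median of 17 (95% interval 17 to 18), and 817 of them, or 64.2%, had 15 to 19 fragments. A pileup of at least 30 was found in 140 lost peaks and a pileup of at least 50 in 28. Just inside the limit, at a pileup of 15, there were 287 lost peaks, and just outside it, at 14, there were 472 narrow peaks without a KO peak. The highest-scoring peaks on either side were much alike. Inside, chr3:64815230-64815304 and chr1:103352910-103352989 had 15 fragments and 7.41-fold enrichment. Outside, chr13:66064450-66064523 and chr3:20517671-20517747 had 14 fragments and 6.95-fold enrichment. At the width limit, 29 lost peaks were 901 to 1000 bp wide, and 22 otherwise similar peaks were 1001 to 1100 bp wide.

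Widths ran from 69 to 1000 bp with a median of 164 bp, and 585 lost peaks, or 45.95%, were no wider than 150 bp, about the length of DNA on 1 nucleosome. Enrichment, which is the pileup over the local background with 1 added to both, ran from 1.52-fold, at a peak of the highest pileup, to 15.4-fold with a median of 5.38-fold. The local background is the number of fragments that the peak caller expected at the position. Its lowest value was 1.16 and its median 2.58 fragments (1.97 to 2.63).

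To see where the lost peaks differed, they were set beside 2 other sets of narrow autosomal WT peaks. The first were the 272 tall peaks that shared a base with a KO peak, called kept peaks. The second were the 19877 lower peaks, with a pileup of 9 to 14 fragments, that shared none. Kept peaks had a higher pileup, with a median of 35 fragments (32 to 38), and a higher local background, with a median of 9.63 fragments (8.55 to 10.5). Their median enrichment was 3.39-fold (3.21 to 3.46), below that of the lost peaks. A background over 3 fragments was found at 527 lost peaks, or 41.4% (38.7 to 44.1), and at 248 kept peaks, or 91.2% (87.2 to 94.0). In the lower lost peaks the median background was 1.17 fragments and the highest 3.18, values that are bounded by their pileup of at most 14. Of the tall narrow peaks with a background of at most 1.5 fragments, 416 of 423 were lost, against 527 of 775 with a background over 3. The part of the background in the split between lost and kept peaks was not tested.

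**Figure D1:**
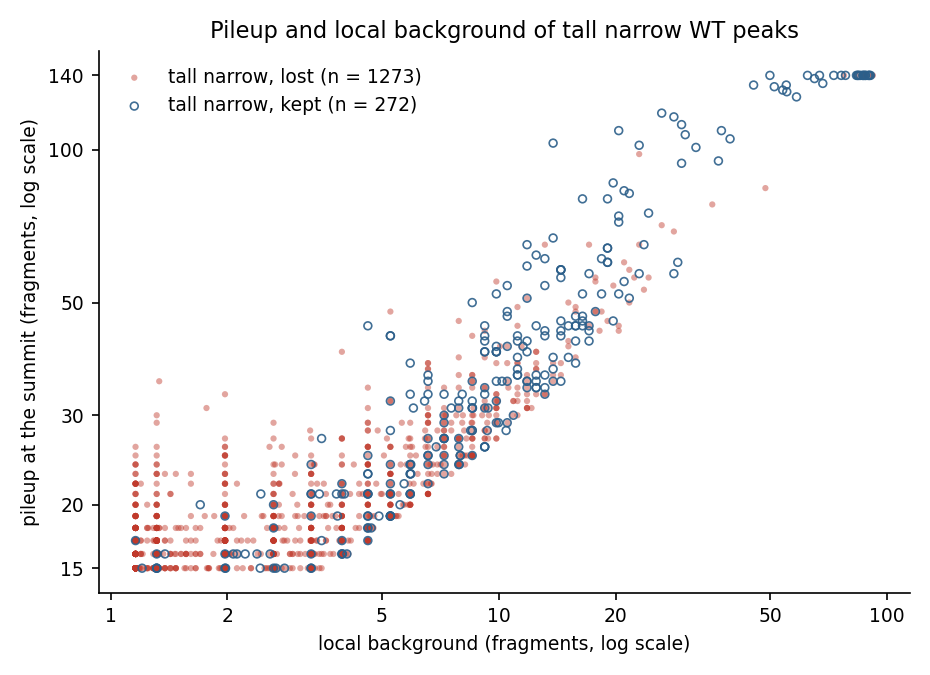
Pileup at the summit against the local background, both in fragments on log scales, for the 1273 lost peaks (filled red points) and the 272 kept peaks (open blue circles). Lost peaks crowd at the lower left, with a median pileup of 17 and a median background of 2.58, and kept peaks lie towards the upper right, with medians of 35 and 9.63.

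Each peak was put in 1 of 7 classes by its own sequence. LINE-1 sequence, found by alignment to an intact LINE-1 copy, accounted for 440 lost peaks, or 34.6% (32.0 to 37.2). Sequence of the endogenous retrovirus families that the study lists accounted for 51, or 4.01% (3.06 to 5.23). Codons of the zinc-finger linker were found in 50, or 3.93% (2.99 to 5.14), and another tandem repeat in 72, or 5.66% (4.51 to 7.06). A further 24 had over 100 copies in the genome without falling in these classes. The copy number is the median count, over the peak, of its 31-base words in the genome. The largest class, with 458 peaks or 36.0% (33.4 to 38.6), held over 1 and up to 100 copies, and 178 peaks, or 13.98% (12.2 to 16.0), were single-copy.

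The classes were unevenly spread between lost and kept peaks. LINE-1 sequence was found in 21 kept peaks, or 7.72% (5.10 to 11.5), a share well below that of the lost peaks, and in 41.6% of the lower lost peaks. No kept peak aligned to a listed retrovirus, and 0 of 272 allows a share of up to 1.10%. In the lower lost peaks the retrovirus share was 7.92% (7.56 to 8.31), above the 4.01% of the lost peaks. By position, 1 kept peak overlapped a listed IAPEz element, or 0.368% (0.0649 to 2.05) of kept peaks. Tandem repeats had the opposite pattern, with 18.4% of kept peaks and 0.629% of lower lost peaks. No lower lost peak had a background above 3.18 fragments, so repeats on a higher background were not in that set. Zinc-finger codons were found in 3 kept peaks, or 1.10% (0.376 to 3.19), and in 1.02% of the lower lost peaks, both below the 3.93% of the lost peaks. The interval of the lost peaks, 2.99 to 5.14, overlaps that of the kept peaks. These shares are not corrected for peak length. Seen the other way, 440 of 461 tall narrow LINE-1 peaks were lost, 51 of 51 retrovirus peaks, 50 of 53 zinc-finger peaks, 458 of 597 peaks of over 1 to 100 copies, 178 of 234 single-copy peaks and 72 of 122 tandem repeats. The low background of the LINE-1 peaks moved with this order. At a background of at most 1.5 fragments, 98.9% of LINE-1 peaks and 97.8% of peaks of over 1 to 100 copies were lost. The lowest class share there was 5 of 6 tandem repeats. Over 1.5 to 3 fragments these shares were 98.3% and 93.5%, and the lowest was 8 of 9 other peaks of over 100 copies. Where the background was over 3 fragments, 55 of 71 LINE-1 peaks were lost, or 77.5% (66.5 to 85.6), against 299 of 429 peaks of over 1 to 100 copies, or 69.7% (65.2 to 73.9), and these intervals overlap. This range has no upper end, and tandem repeats had a higher median background than either class, among lost and among kept peaks. The classes were therefore not compared at equal background, and a class difference at equal background was not tested. Over 3 fragments, 56 of 105 tandem repeats were lost, or 53.3% (43.8 to 62.6), an interval below those of both classes. The other classes at this background were 10 of 10 retrovirus peaks (72.2% to 100%), 7 of 9 zinc-finger peaks (45.3% to 93.7%), 4 of 5 other peaks of over 100 copies (37.6% to 96.4%) and 96 of 146 single-copy peaks, or 65.8% (57.7 to 73.0). All these counts are of listed peaks and do not measure how far the mark fell. Over whole LINE families the study itself reported that H3K9me3 was slightly reduced.

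**Figure D2:**
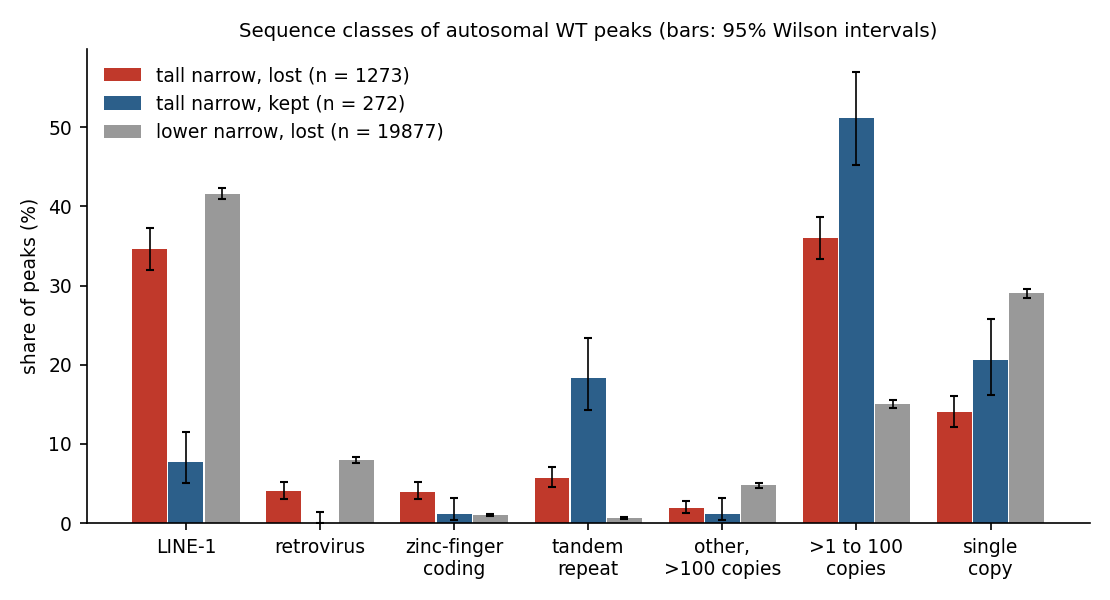
Share of peaks in each sequence class, in percent, for lost peaks (red), kept peaks (blue) and lower lost peaks (grey), with 95% Wilson intervals. LINE-1 makes up 34.6% of lost and 7.72% of kept peaks, tandem repeats 5.66% and 18.4%.

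More than 100 copies in the genome were found for 402 lost peaks, or 31.6% (29.1 to 34.2), for 9 kept peaks, or 3.31% (1.75 to 6.17), and for 43.65% of the lower lost peaks. Since a read that fits several places was put at 1 of them by chance, such a peak may not lie at the copy that carried the mark. How many of its reads fitted only 1 place was not tested. The base composition differed little, with a median GC content of 39.2% (38.7 to 39.6) in lost peaks, 39.9% (38.3 to 42.3) in kept peaks and 38.0% in lower lost peaks. CpG dinucleotides were at 0.202 of the number that the base composition predicts in lost peaks and at 0.236 in kept peaks.

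The LINE-1 peaks crowded at 1 place of the element. Positions were read along 1 intact copy on chromosome 6, within chr6:132248925-132265105, which has an ORF1 of 377 codons and an ORF2 of 1281 codons. Identity to this copy had a median of 96.2%, and the copy number of the peaks had a median of 3319. Of the 440 peaks, 175, or 39.8% (35.3 to 44.4), had their midpoint within 500 bp of the first base of ORF2. The fullest bins of 250 bp were the last ones before that base, with 70 peaks from 250 bp upstream to the base itself and 65 in the bin before. In all, 166 LINE-1 peaks, or 37.7%, lay inside ORF1 and 245, or 55.7%, inside ORF2. A second, lower crowding lay at 1750 to 3000 bp inside ORF2, with 14 to 29 peaks per bin.

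Only 3 LINE-1 peaks aligned upstream of ORF1, where the promoter of the element lies, and 20 lay beyond the end of ORF2. Promoter sequence differs between LINE-1 subfamilies, so a promoter of another subfamily would have been missed by alignment to 1 copy. The lower lost LINE-1 peaks had the same main crowding, with 44.2% (43.1 to 45.2) within 500 bp of the start of ORF2. Of the tall ones, 135, or 30.7%, held at least 1 word of 31 bases found nowhere else in the genome. LINE-1 peaks had a low background, with a median of 1.31 fragments, and a high enrichment, with a median of 7.34-fold (7.00 to 7.41), the highest of the 7 classes.

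**Figure D3:**
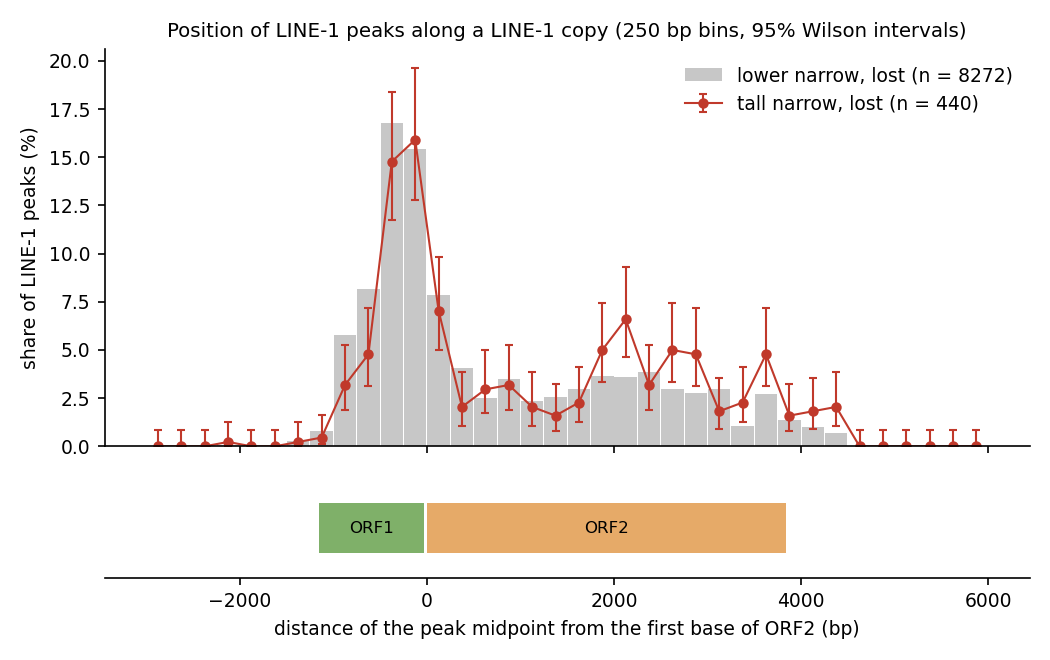
Distance of the peak midpoint from the first base of ORF2, in bp, along a LINE-1 copy whose reading frames are drawn below, as the share of LINE-1 peaks per 250 bp bin, for lost peaks (red points with 95% Wilson intervals) and lower lost peaks (grey bars). Both sets crowd around the end of ORF1 and the start of ORF2, where 39.8% and 44.2% lie within 500 bp.

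Alignment of the lost peaks to one another, at 80% identity over at least 50% of the shorter peak, joined 860 of them, or 67.6%, into 93 groups, and left 413 alone. The largest group held 304 peaks on all 19 autosomes, 249 of them placed on the LINE-1 copy at a median position of -207.5 bp relative to ORF2. Its highest-scoring member, chr18:62450728-62451009, had 33 fragments, 11.4-fold enrichment and a score of 23.2, where the score is −log10 of the caller's q-value. The highest-scoring one of those that could be shown, printed first above, had 26 fragments over a background of 1.31, 11.7-fold enrichment and a score of 19.6. The second group held 168 peaks, 162 of them on LINE-1 at a median of 2520 bp inside ORF2. Its leader at chr13:26332120-26332245, printed second, had 30 fragments, 13.4-fold enrichment and a score of 24.6, and lay outside annotated genes. The fifth group, of 26 peaks, lay beyond the end of ORF2, with a median position of 4265 bp for the 15 peaks placed. Its leader at chr15:4230365-4230463 had 26 fragments and 12.5-fold enrichment. The sixth group held 20 peaks, 13 of them aligned to a listed retrovirus, and was led by chr6:60502760-60502862, with 17 fragments and 8.33-fold enrichment.

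Endogenous retroviruses are remnants of retroviral infections, with an internal region between long terminal repeats (LTRs). Those of the listed families were a small class at this height. Other retroviral families were not searched for, and peaks in them would fall in the remaining classes. MMERVK10C was the family of 28 lost peaks and IAPEz, the intracisternal A-particle family, of 22. The VL30 family has either RLTR6 or MMVL30 as its internal region. RLTR6 had 1 lost peak, while MMVL30 and the separate family RLTR4 had none, and 0 of 1273 allows a share of up to 0.236%. Among the lower lost peaks, 63, or 0.317%, aligned to RLTR6 and 7, or 0.0352%, to MMVL30. Only 36 lost peaks, or 2.83% (2.05 to 3.89), overlapped one of the 1245 listed elements themselves, 22 of them in MMERVK10C, 13 in IAPEz and 1 in RLTR6.

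Peaks of both families lay mostly inside the internal region. The median position was 3083 bp after its start for MMERVK10C, with 23 of 28 peaks in its first 4 kb. For IAPEz the median was 4251 bp, with 11 of 22 peaks between 4 and 5 kb and 4 before the internal start. The highest-scoring retroviral peak, an IAPEz copy at chr2:120644160-120644461, had 29 fragments over a background of 1.31, 12.96-fold enrichment and a score of 23.3, among the 5 highest of all lost peaks. It lay in an intron of both Cdan1, which encodes a partner of the histone chaperone Asf1, and Ttbk2, a kinase needed for cilia. IAPEz peaks were enriched 7.34-fold at the median and MMERVK10C peaks 5.55-fold. Among the lower lost peaks the order of the families was turned, with 1038 IAPEz and 456 MMERVK10C peaks. The turn came from IAPEz, which made up 5.22% (4.92 to 5.54) of lower lost peaks and 1.73% (1.14 to 2.60) of lost peaks. The MMERVK10C share was 2.29% in lower lost peaks, inside the interval of its share in lost peaks, 1.53% to 3.16%.

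Zinc-finger coding sequence was the class with the widest peaks, at a median of 465 bp (337 to 575) against 164 bp for all lost peaks. Together the 50 peaks held 168 runs of linker codons, up to 9 in a peak. In 19 of them a repeat of 84 bp was found, which is the 28 codons of 1 finger with its linker. They lay mostly in a few places, with 18 on chromosome 13, 10 on chromosome 5 and 5 on chromosome 4. Copy number was low, at a median of 3, and 19 of the 50 peaks overlapped annotated coding sequence. The leader of the third alignment group, at chr13:66893847-66894131, had 23 fragments over a background of 1.47, 9.71-fold enrichment and a score of 14.9. It lay outside annotated genes and only 144 bp from a KO peak. Over the class, 4 of 50 had a KO peak within 1 kb and the median distance to one was 61401 bp.

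Several named zinc-finger genes were among them. Zfp951 on chromosome 5 carried a peak of 25 fragments over its coding sequence (chr5:105243629-105244203), with 6 linker runs and 8.75-fold enrichment. Gm13225 on chromosome 4 carried 2 peaks, and its highest-scoring one (chr4:145127249-145127486) also had 25 fragments and 8.75-fold enrichment. Zfp640 on chromosome 13 had 18 fragments and 8.80-fold enrichment in its coding sequence, at chr13:66772112-66772426. Gm10324, also on chromosome 13, had 20 fragments over a stretch with 8 linker runs, with 7.07-fold enrichment. Gm15446 on chromosome 5 and 3300002I08Rik on chromosome 2 had 17 fragments and 7.78-fold enrichment each. Gm13154 on chromosome 4 had 18 fragments over coding sequence, and Gm17353 on chromosome 13 had 16 in its promoter. Copies of these genes are similar, and the placement of reads among them was uncertain.

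Gene bodies were overlapped by 376 lost peaks, or 29.5% (27.1 to 32.1), compared with 35.7% (30.2 to 41.5) of kept and 23.6% of lower lost peaks. Promoters of protein-coding genes, from 2 kb upstream to 0.5 kb downstream of a transcript start, were overlapped by 58 lost peaks, or 4.56% (3.54 to 5.84), and by 30 kept peaks, or 11.0% (7.84 to 15.3). In the lower lost peaks the promoter share was 2.18%. Coding sequence was overlapped by 45 lost peaks, or 3.54% (2.65 to 4.70), and by 1.11% of lower lost peaks. The share was higher in kept peaks, with 16 peaks or 5.88% (3.65 to 9.34), and its interval overlaps that of the lost peaks. In total 70 protein-coding genes had a lost peak in a promoter or an exon, from 99 peaks.

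Of those 70 genes, the 20 with the highest-scoring peaks were described, 8 of which are named among the zinc-finger peaks above. The first was Zfp354c, a zinc-finger gene on chromosome 11 whose promoter held a LINE-1 peak of 22 fragments with 10.6-fold enrichment and a score of 15.9. Gm10139, Gm10772, Gm4981, Gm13139, Gm13242 and 2610036A22Rik had peaks of over 1 to 100 copies with 16 to 29 fragments. Among these, Gm10139 had 23 fragments and 9.19-fold enrichment in its promoter, and Gm10772 had 19 fragments and 8.64-fold. At 3110070M22Rik the exon peak was taller, at 44 fragments, but stood on a background of 9.20 and was enriched 4.41-fold.

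Some genes of this list have other known roles. Il15ra, which encodes the receptor chain that presents interleukin 15, had a tandem repeat peak of 17 fragments over a background of 1.31 at 1 of its promoters (chr2:11638916-11638984), with 7.78-fold enrichment. Slc24a3, a sodium, potassium and calcium exchanger gene, had a LINE-1 peak with the same values at an internal promoter, at chr2:145066964-145067272. Zfp873 on chromosome 10 had a single-copy peak of 16 fragments in its coding sequence, enriched 7.34-fold. Gm10807, also on chromosome 10, had a peak of 34 fragments over a background of 6.58, only 375 bp from a KO peak.

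The gene lists were covered unevenly. Bodies of Zfp genes held lost peaks in 9 of 365 genes, or 2.47% (1.30 to 4.62), against 163 of 21281, or 0.766% (0.657 to 0.892), for all autosomal protein-coding genes. The 9 were Zfp534, Zfp600, Zfp640, Zfp873, Zfp932, Zfp942, Zfp943, Zfp944 and Zfp951. Counted by peaks, Zfp gene bodies held 14 lost peaks, or 1.10% (0.656 to 1.84). This was close to the 1.06% of lower lost peaks, and 0 of 272 kept peaks lay in them, which allows up to 1.10%. The shares of genes are not corrected for gene length. Zfp932 had 26 fragments over a background of 4.60, Zfp942, Zfp943 and Zfp944 had 15 each, and Zfp600 had 5 peaks, the highest-scoring with 20 fragments over a background of 3.68. Zfp534 had an intronic peak of 18 fragments, enriched 3.39-fold.

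Of 35 protocadherin genes, which encode adhesion proteins, Pcdh7 alone held one, an intronic LINE-1 peak of 16 fragments with 7.87-fold enrichment. Of 431 vomeronasal receptor (Vmn) genes, Vmn2r118 alone did, also with an intronic LINE-1 peak, of 19 fragments and 9.26-fold. Of 18 germline genes, Tdrd1, which acts in the piRNA pathway, held 1 intronic tandem repeat of 28 fragments over a background of 4.60. No lost peak overlapped any of 1241 olfactory receptor (Olfr) genes, which allows a share of up to 0.242%, nor any of 18 imprinted genes or 15 genes of the H3K9 methylation machinery. The latter lists are short selections, and 0 of 18 allows up to 16.7% and 0 of 15 up to 20%. A lost peak at SNORD116, a gene that was not on the imprinted list, is described below.

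Lost peaks were crowded along the genome. They fell in 587 windows of 1 Mb, and 434 windows held 1 each, but 17 windows with at least 10 lost peaks held 463 of them, or 36.4%. These dense windows and the peaks and genes named in them were chosen after the values were seen. In the dense windows 323 peaks, or 69.8% (65.4 to 73.8), were of the class of over 1 to 100 copies and 34, or 7.34% (5.30 to 10.1), were LINE-1. Outside them LINE-1 made up 406 of 810 peaks, or 50.1% (46.7 to 53.6), and the low-copy class 16.7% (14.3 to 19.4). The median background was 3.94 fragments inside and 1.66 outside. The nearest KO peak was at a median of 1361 bp inside and 239528 bp outside.

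The fullest window, chr8:19000001-20000000, held 60 lost peaks of 16 to 48 fragments with a median copy number of 4, beside 39 kept peaks and 90 KO peaks. Its median background, 7.95 fragments, was over 3 times that of all lost peaks. On chromosome 1, 49 lost peaks lay at 85 to 86 Mb and 34 at 87 to 88 Mb. C130026I21Rik, most of which lies in the former window, held 39 lost peaks. The window at 87 to 88 Mb contains Sp110 and Sp140, which encode nuclear body proteins of immune cells. Sp140 held 11 lost and 3 kept peaks with 17 to 26 fragments in the lost ones, and Sp110 held 5 lost and 0 kept with 18 to 24.

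Zinc-finger gene regions made up other dense windows. On chromosome 4, 45 lost peaks lay at 146 to 147 Mb, 3 of them with linker codons, and 35 at 145 to 146 Mb, 2 of them with linker codons. The median background of these 2 windows was 2.81 and 2.76 fragments. On chromosome 13, 30 lay at 65 to 66 Mb, 7 of them with linker codons, and 26 at 66 to 67 Mb, 11 of them with linker codons. Kept peaks were few in these 4 windows, with 5, 3, 3 and 0. The lowest background of the dense windows was that at 66 to 67 Mb of chromosome 13, with a median of 1.97. On chromosome 5, 39 lost peaks of 19 to 53 fragments at 15 to 16 Mb, a region of Speer genes, stood on a median background of 8.55.

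Smaller dense windows lay on other gene copies. On chromosome 7, 15 lost peaks with 11 to 21 copies lay at 67 to 68 Mb, among them chr7:67006704-67006931, which overlapped a gene of the small nucleolar RNA SNORD116 with 29 fragments and 3.96-fold enrichment. On chromosome 10, 14 lay at 57 to 58 Mb, and 3 of them overlapped Dux, a homeobox gene known for its role in early embryos. The Dux peaks had 22, 24 and 26 fragments over backgrounds of 6.40, 6.95 and 5.98, were enriched 3.11-fold to 3.87-fold, and lay 108 to 209 bp from a KO peak.

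By chromosome, lost peaks were densest on chromosome 8 with 1.32 per sequenced Mb, chromosome 4 with 0.902 and chromosome 1 with 0.810, and sparsest on chromosome 12 with 0.255. Together chromosomes 8, 1 and 4 held 165, 155 and 137 of them. Chromosome 8 also had the most kept peaks, since 81 of its 246 tall narrow peaks were kept and 67.1% (61.0 to 72.6) lost. The lowest share was 64.9% (51.9 to 76.0) on chromosome 11. All 40 tall narrow peaks of chromosome 15 were lost, for which the interval reaches down to 91.2%. Within the first sequenced Mb of the autosomes lay 82 lost peaks, or 6.44% (5.22 to 7.92), 62 kept peaks, or 22.8% (18.2 to 28.1), and 1.38% of the lower lost peaks.

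**Figure D4:**
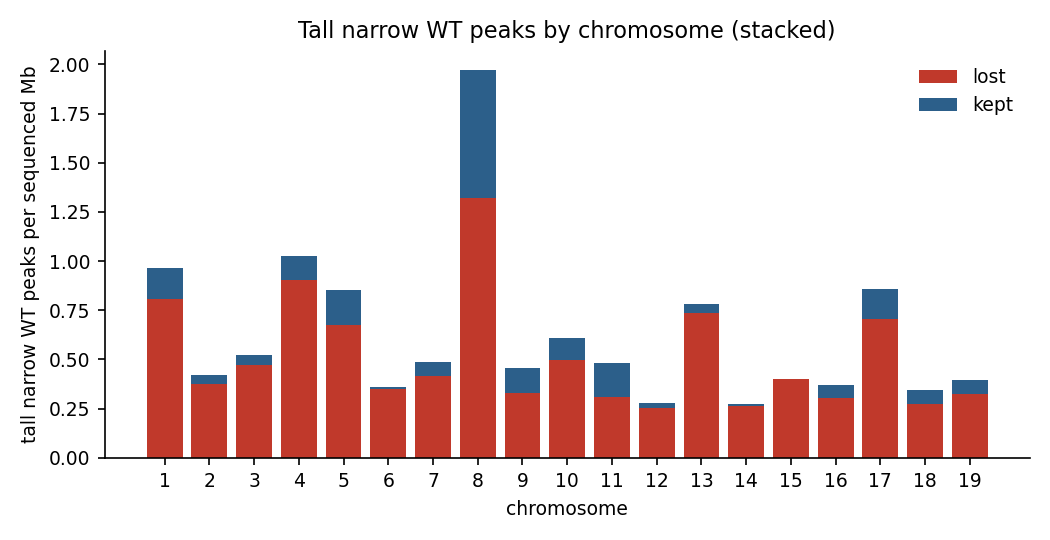
Tall narrow WT peaks per sequenced Mb on each autosome, stacked as lost (red) and kept (blue). Chromosome 8 stands highest with 1.32 lost peaks per Mb, and the lost part of the bar is lowest on chromosome 12 with 0.255.

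Tandem repeats gave the highest score and many of the tallest lost peaks. The highest score of all, 30.9, belonged to chr15:38238255-38238349, the peak of repeated TCTGCC printed above, with 35 fragments over a background of 1.34 and 15.4-fold enrichment. Its words occur at a median of 26073 places, and it lay outside annotated genes, 7838 bp from a transcript start of Klf10. The search looked at periods of 10 to 500 bp, so that this repeat was recorded at 12 bp. The fourth alignment group, of 36 peaks with 17 on chromosome 3 and 11 on chromosome 17, was led by chr17:3023021-3023095, a repeat of 21 bp. This peak had 65 fragments over a background of 13.1, a score of 18.8, and a KO peak 445 bp away. A window at 3 to 4 Mb of chromosome 3 held 29 lost peaks, 13 of them tandem repeats and 16 single-copy by exact words. Another at 3 to 4 Mb of chromosome 17 held 17, of which 8 were tandem repeats.

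The tallest lost peaks stood on high background. The limit of 50 fragments used here and the search for satellite sequence were chosen after the values were seen. The 28 peaks with at least 50 fragments had a background of 9.86 to 92.0 fragments. The highest pileup, 140, was shared by 8 lost peaks, 20 kept peaks and 42 WT peaks in all, and 24 KO peaks shared the highest KO value of 130. Heights at these values are therefore bounded from above and were not ranked. The enrichment of the 8, listed at 1.52-fold to 1.79-fold over a background of 77.6 to 92.0, rests on that bounded height and is not read as exact. The other 20 peaks were enriched 1.71-fold to 5.16-fold over a background of 9.86 to 48.7 fragments. The 8 formed the ninth alignment group, and the peak at chr9:3024996-3025249 had the 234 bp unit of the major satellite, the main repeat of mouse pericentric heterochromatin. It overlapped coding sequence of Gm10718, had a background of 84.2, was enriched 1.66-fold and lay 108 bp from a KO peak. Also at this pileup were chr12:3109898-3110133, with 1.57-fold, and chr9:35112830-35113182, with 1.53-fold.

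At least 40 bp of the satellite unit was found in 9 lost peaks, or 0.707% (0.372 to 1.34), in 25 kept peaks, or 9.19% (6.30 to 13.2), and in 0 of the 19877 lower lost peaks. The lost and kept satellite peaks had a background of at least 5.26 fragments, and no lower lost peak had one above 3.18. That 0 is therefore not read as an absence of satellite sequence. The ninth lost peak was chr6:60637228-60637308, single-copy by exact words, with 48 fragments over a background of only 5.26, 7.83-fold enrichment and a score of 23.6. It lay outside annotated genes, and the nearest KO peak was 1045121 bp away. The remaining one of the 5 highest scores, 24.8, belonged to chr9:123782234-123782318, which had 98 fragments over a background of 23.0 and 4.12-fold enrichment, with 3 copies and no annotated gene.

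The distance to the nearest KO peak set the classes apart. By the rule no lost peak shared a base with a KO peak, and the shortest distance was 18 bp, with 19 lost peaks within 100 bp. No lost peak was directly adjacent to a KO peak, so counting the deposited starts from 0 or 1 does not change the members. A KO peak lay within 1 kb of 255 lost peaks, or 20.03% (17.9 to 22.3), and of 2.44% of the lower lost peaks. Among lost peaks of over 1 to 100 copies it was 37.8%, among tandem repeats 30.6%, among single-copy peaks 16.3% and among LINE-1 peaks 5.23%. The median distance was 239528 bp for LINE-1 and 1908 bp for over 1 to 100 copies. These distances move with the background, whose medians were 1.31 fragments for LINE-1, 1.66 for zinc-finger codons, 1.97 for retroviruses, 3.29 for single-copy, 3.94 for over 1 to 100 copies and 4.60 for tandem repeats, and the part of the background was not tested.

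**Figure D5:**
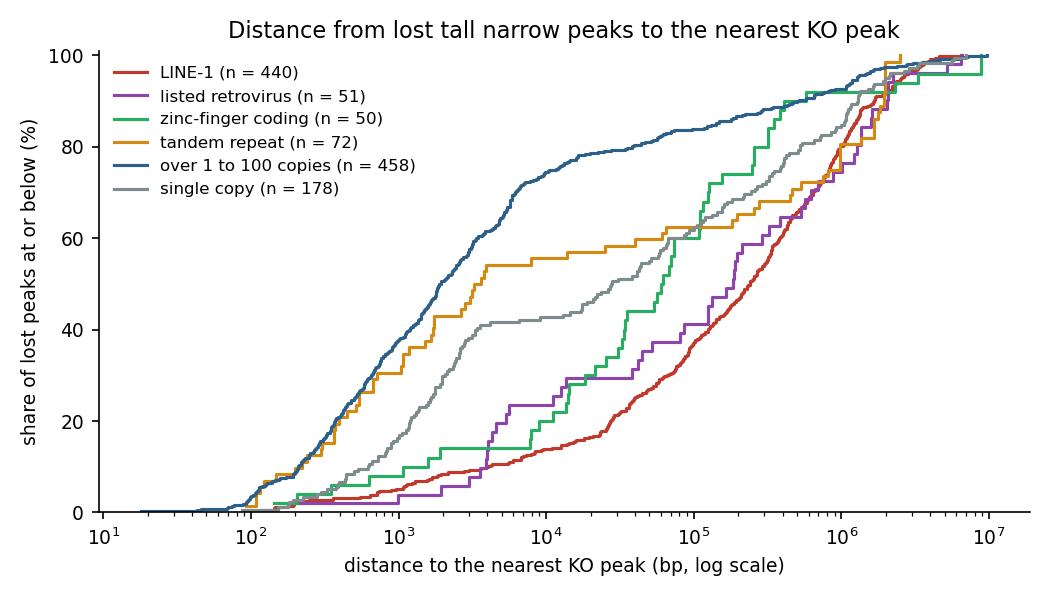
Cumulative share of lost peaks, in percent, by distance to the nearest KO peak in bp on a log scale, for 6 sequence classes. The curve for over 1 to 100 copies rises first, with a median of 1908 bp, and that for LINE-1 last, with a median of 239528 bp.

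Lost peaks also had close neighbours in the WT list itself. Another WT peak lay within 1 kb of 674 lost peaks, or 52.95% (50.2 to 55.7), of 74.3% (68.8 to 79.1) of kept peaks and of 30.7% of lower lost peaks. The zinc-finger class had the most, 46 of 50, and the LINE-1 class 146 of 440. Each lost peak was counted on its own, so neighbouring peaks of 1 stretch are not independent of each other.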

How the data were processed

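H3K9me3 ChIP-seq of WT and KO Setdb1 cKO iMEFs was analysed from 2 peak lists, 1 library each. The authors used Bowtie2 2.2.3 to map single-end reads to mm9, placed each multi-hit read at 1 randomly chosen valid site, removed duplicates, and called peaks with MACS2 2.1.0.20140616. In the deposited lists the pileup is a signal, in fragments at the summit, fold enrichment is a ratio to the local background, and the 2 significance columns are −log10 of a p-value and of a q-value (the score). Background was recovered as (pileup + 1) / fold − 1. The peaks and gene lists were chosen with earlier results of these data known. Caller options are not given in the sources used here, and neither is whether starts count from 0 or 1, which leaves 1 bp of uncertainty in each start.

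Lost peaks shared no base with a KO peak. Copy numbers were counted over 31-mers of NCBIM37, which is mm9. LINE-1 sequence was called by BLAST+ 2.17.0 (80% identity over 50% of the shorter sequence) against 1 intact copy, chosen among 69 candidates by its 2 reading frames. Retroviral sequence had to align to at least 10% of the elements that the study lists for a family. Genes were those of GENCODE M1. Peaks in several classes were put in the first of LINE-1, retrovirus, zinc-finger codons, tandem repeat and copy number. Shares carry 95% Wilson intervals and medians 95% order-statistic intervals, and where nothing was found the upper limit is 3 counts divided by the total. Depth is unknown, since read totals are not in the lists. With 1 library per group no p-value was computed.

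Peaks were named by rule: the 5 highest scores, the 3 highest pileups and folds, the leaders of the 6 largest alignment groups, and 2 on each side of the pileup limit. Sequences were printed for some of them. Genes were named up to 20 by score for promoters and exons, and for every gene-list gene overlapped. Interval, copy-number, repeat and codon code was tested on simulated data. Scripts ran in Python 3.11.15 with scipy 1.17.1, networkx 3.6.1, pandas 2.3.3, biopython 1.88, pysam 0.24.0, matplotlib 3.10.9, numba 0.67.0 and numpy 2.4.6.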

Additional observations from a re-analysis of the deposited data

How the results depend on the processing

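Under 8 alternatives 63 values were recomputed, of which 35 stayed within 1.5 times the count or within the 95% interval given above. The pileup limit moved the count of lost peaks most. A limit of 12 fragments gave 4153 lost peaks, 92.6% of the tall narrow peaks, with a median background of 1.31 fragments, 39.4% at over 100 copies, 25.8% in gene bodies, 45.15% within 1 kb of another WT peak and a median GC content of 38.1%. A limit of 20 fragments left 456, or 66.6% of the tall narrow peaks, with a median background of 6.01 fragments, 16.7% at over 100 copies, 32.2% in gene bodies and 42.2% GC. With a background of at most 3 fragments, 746 lost peaks were left, 96.9% of the tall narrow ones, with 50.1% at over 100 copies, 23.7% in gene bodies, 47.99% within 1 kb of another WT peak and 38.0% GC. Where a KO peak within 1 kb also ended a loss, 65.9% were lost, with 38.8% at over 100 copies and 45.8% within 1 kb of another WT peak. A width of at most 500 bp gave 35.1% at over 100 copies, 50% within 1 kb of another WT peak and 39.8% GC, and no width limit gave 28.3% and 38.4% GC. Scores at or above the WT median gave 35.5% at over 100 copies. Adding chromosomes X and Y moved none of the 8 results, and the share in listed retroviruses stayed at 2.51% to 3.30% throughout.

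No paired analysis was possible because only 1 library stands for WT and 1 for KO. What caused the shifts was not tested. A pileup near the limit rests on few fragments, and absence from the KO list does not show that the mark is absent.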

Other observations

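Outside the rule, the same kind of peak was found on the sex chromosomes and among wider peaks. On chromosome X, 108 tall narrow peaks had no KO peak and 45 had one. The lost ones had a median pileup of 19 fragments over a background of 2.63, and 43 of them, or 39.8%, had over 100 copies, while 1 of the 45 kept ones did. Chromosome Y had 2 lost ones. Among tall autosomal peaks wider than 1000 bp, 160 were lost and 54 kept. Linker codons of zinc fingers were found in 61 of the 160 wide lost peaks, or 38.1%, and in 11 of the 54 wide kept ones, or 20.4%, compared with 50 of the 1273 narrow lost peaks. A longer peak has more room for such a codon run, and the shares are not corrected for length. Only 3 of the wide lost peaks had over 100 copies.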
